A study of Mus musculus with 12 samples.

Results

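Heat shock proteins, other chaperones and the proteasome were described in 2 mouse bone cell lines over 4 groups of arrays. Members were the spots whose gene symbol, updated through its Entrez identifier, began with Hsp, Dnaj, Pdia, Cct and a digit, or Psm and a letter, or was Canx or Calr. Hyou1, which the same rule names, matched no spot used here, and the rule left out Hspg2, which encodes a matrix proteoglycan, and 1 other gene, so the members are not all genes with these prefixes. The rule gave 62 spots of 62 genes among the 5030 spots of the array, of which 4633 had 1 gene symbol. Proteasome genes made up 25 of them, with 6 alpha and 8 beta subunits of the core particle, 4 ATPases and 4 other subunits of the regulatory particle, and 3 activators or assembly factors. The other 37 comprised 3 small heat shock proteins, 6 folding proteins of the endoplasmic reticulum, 7 members of the Hsp70 and Hsp110 families, 12 J proteins, 7 subunits of the chaperonin CCT and the 2 parts of the mitochondrial chaperonin.

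The proteasome cuts proteins tagged with ubiquitin inside a barrel of alpha and beta subunits, which a cap of ATPases feeds. Interferon makes cells exchange catalytic beta subunits for a set known as the immunoproteasome and raises a second cap, the activator formed by the products of Psme1 and Psme2. Hsp70 proteins bind unfolded stretches with the help of J proteins and nucleotide exchange factors, CCT folds actin and tubulin, and the chaperones of the endoplasmic reticulum fold what bone cells secrete.

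MLO-Y4 is an osteocyte line whose source mouse carried T antigen under the osteocalcin promoter, and 2T3 is an osteoblast line from a mouse with SV-40 T antigen under the BMP-2 promoter. T antigen of SV-40 carries a J domain of its own, and both lines come from mice with a T antigen transgene. The groups were MLO-Y4 high, MLO-Y4 low, 2T3 C0 and 2T3 low, with total RNA on 3 one-colour arrays each. The labels set MLO-Y4 cells with gap junctions against cells without them, and confluent 2T3 cells against sparse ones. The name high was read as with gap junctions, and C0 as confluent, only because the other group of each line is called low. Each cell type is represented by 1 line, so cell type, line and source mouse cannot be told apart. The labels do not say that arrays of a group came from separate cultures, so the p-values cover array-to-array spread, part or all of which may be technical. In this bulk RNA, fewer cells and less RNA per cell cannot be told apart.

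Values are background-subtracted spot intensities, quantile normalized between arrays and floored at 6.08 normalized units, and they set no gene against another, since each spot binds its target differently. Where the brightest spot of a role is named, this says which spot is shown and nothing of how abundant its RNA is. Deposited intensity summed to between 212491 and 1680311 per array. The most negative value of an array, with its sign dropped, served as that array's detection limit, and 37.9% to 74.8% of spots lay above it. The limit corresponded to 47.8 and 47.2 normalized units on MLO-Y4 high 1 and MLO-Y4 low 1, and to between 6.17 and 25.1 on the other 10 arrays. Between 41 and 54 of the 62 members were above the limit on a given array. On all 12 arrays 28 members were, none was below it on every array, and 81 of 744 member values lay at the floor. Among osteocyte markers Pdpn, Cd44, Dstn and Capg were higher in MLO-Y4 (adjusted p = 0.0174, 0.0343, 0.000187 and 0.0285 in limma), and Phex was above the limit on 0 arrays. Of 5 osteoblast markers none passed, and their median log2 difference was -1.13. It was negative for Bglap (-2.02), Dlx5 (-1.86), Omd (-1.13) and Ibsp (-0.47) and positive for Alpl (2.08). Of 11 measured markers of macrophages, endothelium, fat, cartilage and muscle 1 was higher in MLO-Y4 (Csf1r, 0.99 on the log2 scale) and 2 were lower (Tyrobp, -3.25, and Pparg, -2.39). The 4 measured macrophage markers summed to 42.7 to 153 per MLO-Y4 array and 65.1 to 312 per 2T3 array, and the pan-leukocyte marker Ptprc was above the limit on 0 of 12. The part of other cell types in the differences below was not tested.

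The comparison of MLO-Y4 with 2T3, over both densities, asked which genes differ between the osteocyte and the osteoblast line. Of the members, 2 proteasome genes were higher in MLO-Y4. Psme1, the alpha subunit of the activator cap, rose 3.06-fold, and Psmb8, a catalytic subunit of the immunoproteasome, rose 3.60-fold. For Psmb8 5 of the 6 2T3 values were at the floor, so its fold depends on the floor, and with a floor at the 50th percentile of all values its log2 difference was 0.41. Both genes passed an adjusted p of 0.05 in limma, adjusted by Benjamini-Hochberg over all 5030 spots. With the replicate number as a block 1 of them passed, Psme1 (adjusted p = 0.012). They were 2 of 62 members (3.23%), against 9.3% of all spots called in either direction and 5.83% called higher. Of all spots 3.48% were called lower, and 0 members were. Without adjustment 9 members had p under 0.05, or 14.5% against 21.1% of all spots. Of the 37 chaperone and folding genes, 0 passed.

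Over all members the median log2 difference of MLO-Y4 minus 2T3 was 0.11, with 36 above 0 and 26 below, against -0.032 over all spots. The balance of directions moved with the scaling of the arrays. With arrays scaled to equal medians the members' median was 0.45, and with detected-spot scaling, which equalizes the medians of the 1253 spots above the limit on all arrays, it was -0.21. Over all spots 293 were called higher and 175 lower, against 414 and 94 with equal array medians and 240 and 308 with detected-spot scaling. The median line difference of those 1253 spots was 0.038, and 0.79 with equal array medians, so values under that scaling are to be read against it. The sign of a member's own difference was positive under all 3 scalings for 26, negative for 15 and not the same for 21. The 95% interval of the difference lay within 1 log2 unit either side of 0 for 7 of 62 members. For the other 55 a 2-fold difference in at least 1 direction was within the interval, so a member that missed the threshold is not thereby shown to be equal.

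**Figure D1:**
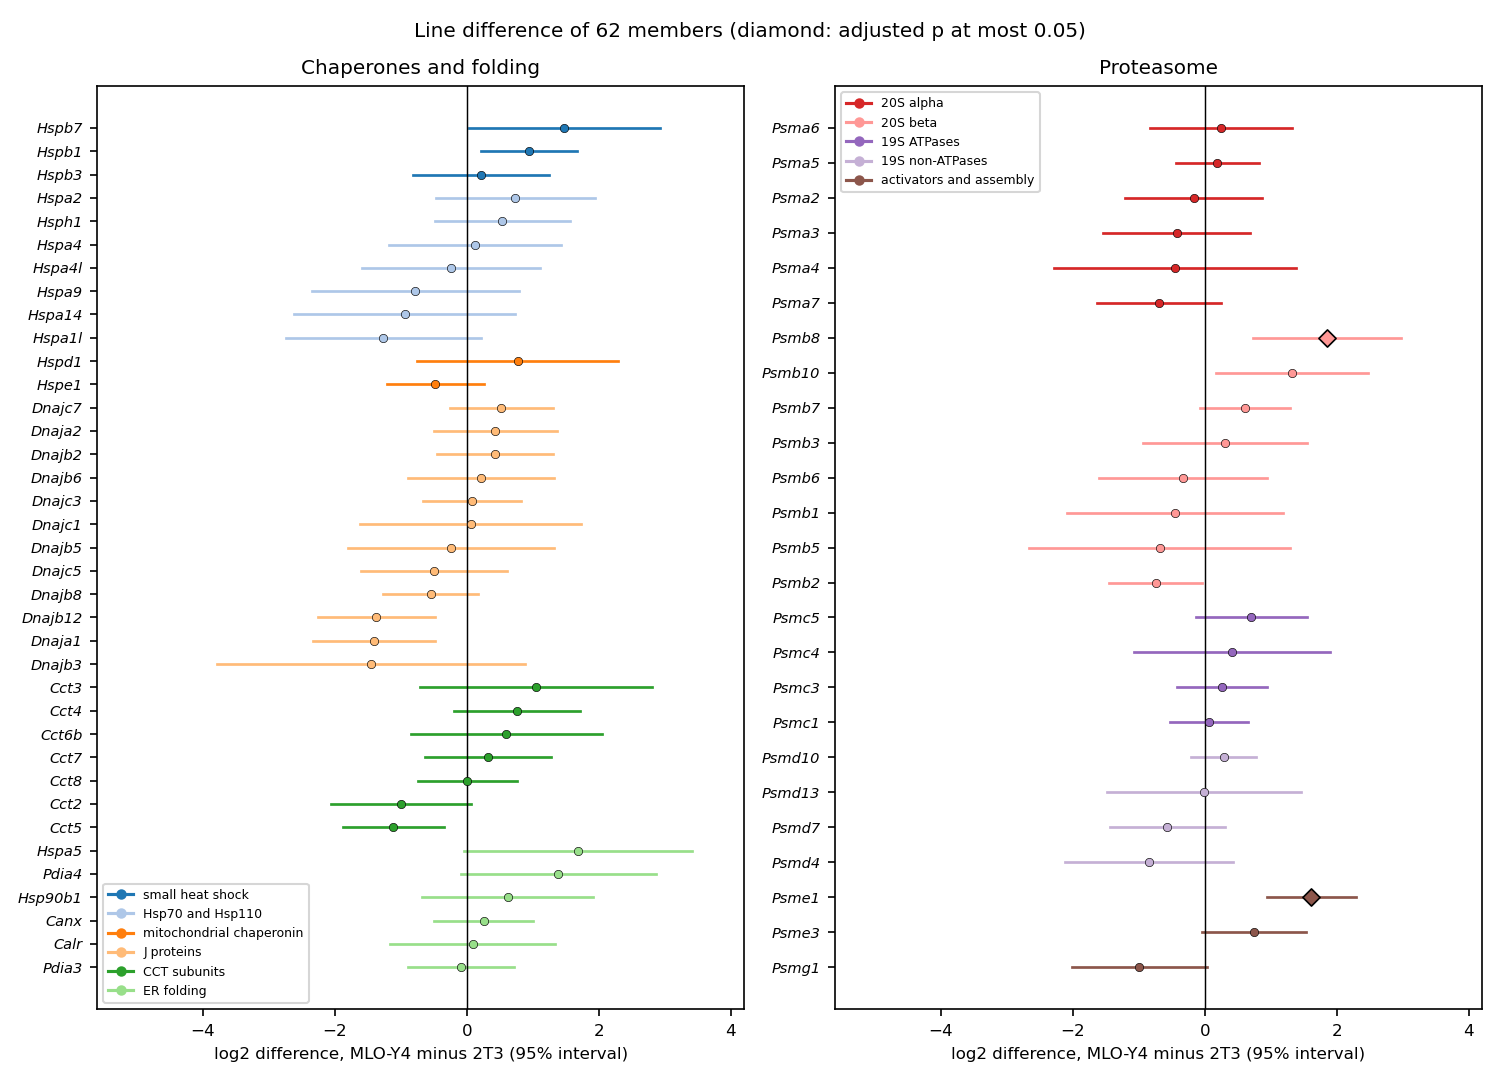
Log2 difference of MLO-Y4 minus 2T3 for the 37 chaperone and folding genes (left) and the 25 proteasome genes (right), with 95% intervals from the fit over 6 arrays a line and colours for roles. The diamonds mark Psme1 (1.61) and Psmb8 (1.85), and most other intervals cross 0.

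Psme1 lay at 1491, 519.9 and 1109.9 on the MLO-Y4 high arrays and 664, 368 and 518 on the MLO-Y4 low arrays, against 194, 235 and 258 on the 2T3 C0 arrays and 218, 292 and 179 on the 2T3 low arrays. All 6 MLO-Y4 values were above all 6 2T3 values, one of 206 spots (4.1%) with that separation. The means were 691 in MLO-Y4 and 226 in 2T3, a log2 difference of 1.61 (SE 0.30, adjusted p = 0.00796), with a 95% interval of 0.94 to 2.28. It passed with each single array left out (adjusted p up to 0.0242). Without the 4 arrays numbered 1 it was 1.27, with an adjusted p of 0.0879.

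Psmb8, which in mice replaces the constitutive chymotrypsin-like subunit encoded by Psmb5, lay at 42.6, 28.2 and 19.2 on the MLO-Y4 high arrays and 61.3, 6.58 and 26 on the MLO-Y4 low arrays, against 6.08, 13.4 and 6.08 on the 2T3 C0 arrays and 6.08, 6.08 and 6.08 on the 2T3 low arrays. Detection limits were passed on 4 of 6 MLO-Y4 arrays and on 1 of 6 2T3 arrays, and MLO-Y4 low 2 lay within the 2T3 range. Its log2 difference was 1.85 (SE 0.50, adjusted p = 0.0469), from means of 25 in MLO-Y4 and 6.94 in 2T3, and most of the 2T3 values behind the fold are at the floor. With a floor at the 50th percentile of all values it was 0.41 (adjusted p = 0.494), with the replicate number as a block its adjusted p was 0.0552, and it passed in 1 of 12 fits that left out an array.

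Psmb10, the immunoproteasome subunit that takes the place of the one encoded by Psmb7, lay at 109, 40.5 and 14.1 on the MLO-Y4 high arrays and 10.4, 23.6 and 21.2 on the MLO-Y4 low arrays, against 6.08, 6.92 and 6.08 on the 2T3 C0 arrays and 32.1, 19.8 and 8.25 on the 2T3 low arrays. Its values overlapped between the lines, and the difference of 1.32 (SE 0.51, adjusted p = 0.167) did not pass. The constitutive counterparts did not pass either. Psmb5 lay at 223, 140.2 and 6.33 on the MLO-Y4 high arrays and 359.9, 168 and 45.2 on the MLO-Y4 low arrays, against 127, 175 and 73.8 on the 2T3 C0 arrays and 226, 309 and 80.6 on the 2T3 low arrays, with a difference of -0.68 (SE 0.89, adjusted p = 0.746). Psmb7, the beta subunit with the brightest spot, lay at 277, 214 and 193 on the MLO-Y4 high arrays and 263, 136 and 206 on the MLO-Y4 low arrays, against 127, 117 and 79.7 on the 2T3 C0 arrays and 111, 307 and 165 on the 2T3 low arrays, with a difference of 0.61 (SE 0.30, adjusted p = 0.293).

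Promoters of both called genes are shown because each holds letters of an interferon-type element, from RefSeq (mouse build GRCm38.p6, 250 bases before to 25 after the start, plus strand). Psme1 is at chr14:55578244-55578518 and Psmb8 at chr17:34197945-34198219. Capitals mark the core of the interferon response element, GAAA, any 2 bases and GAAA again, in Psme1, at bases 10 to 19 after the start, and the gamma-activated site, TTCNNNGAA, in Psmb8, at bases -97 to -89. In Psme1 the match is on the other strand, so its reverse complement stands here.
Psme1: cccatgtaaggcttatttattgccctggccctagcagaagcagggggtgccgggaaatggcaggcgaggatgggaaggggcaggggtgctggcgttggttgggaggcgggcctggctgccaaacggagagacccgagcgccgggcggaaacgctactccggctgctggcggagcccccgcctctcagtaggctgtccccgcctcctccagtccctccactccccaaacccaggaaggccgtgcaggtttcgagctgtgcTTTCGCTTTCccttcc
Psmb8: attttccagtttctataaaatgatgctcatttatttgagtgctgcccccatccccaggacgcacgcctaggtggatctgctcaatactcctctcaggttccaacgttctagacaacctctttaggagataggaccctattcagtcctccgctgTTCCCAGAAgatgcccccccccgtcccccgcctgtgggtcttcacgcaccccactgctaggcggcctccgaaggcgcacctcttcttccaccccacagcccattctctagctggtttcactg
Both strands were searched over the 250 bases before and 50 after each start. The interferon core occurred in 3 of 54 members with a promoter entry (Psme1, Psmb3 and Psmd4, 5.56%) and in 3.99% of 27025 genes. The gamma-activated letters occurred in 4 members (Psmb8, Psmg1, Cct5 and Dnajc7, 7.41%) and in 9.55% of all genes. Such matches describe letters and not bound sites.

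**Figure D2:**
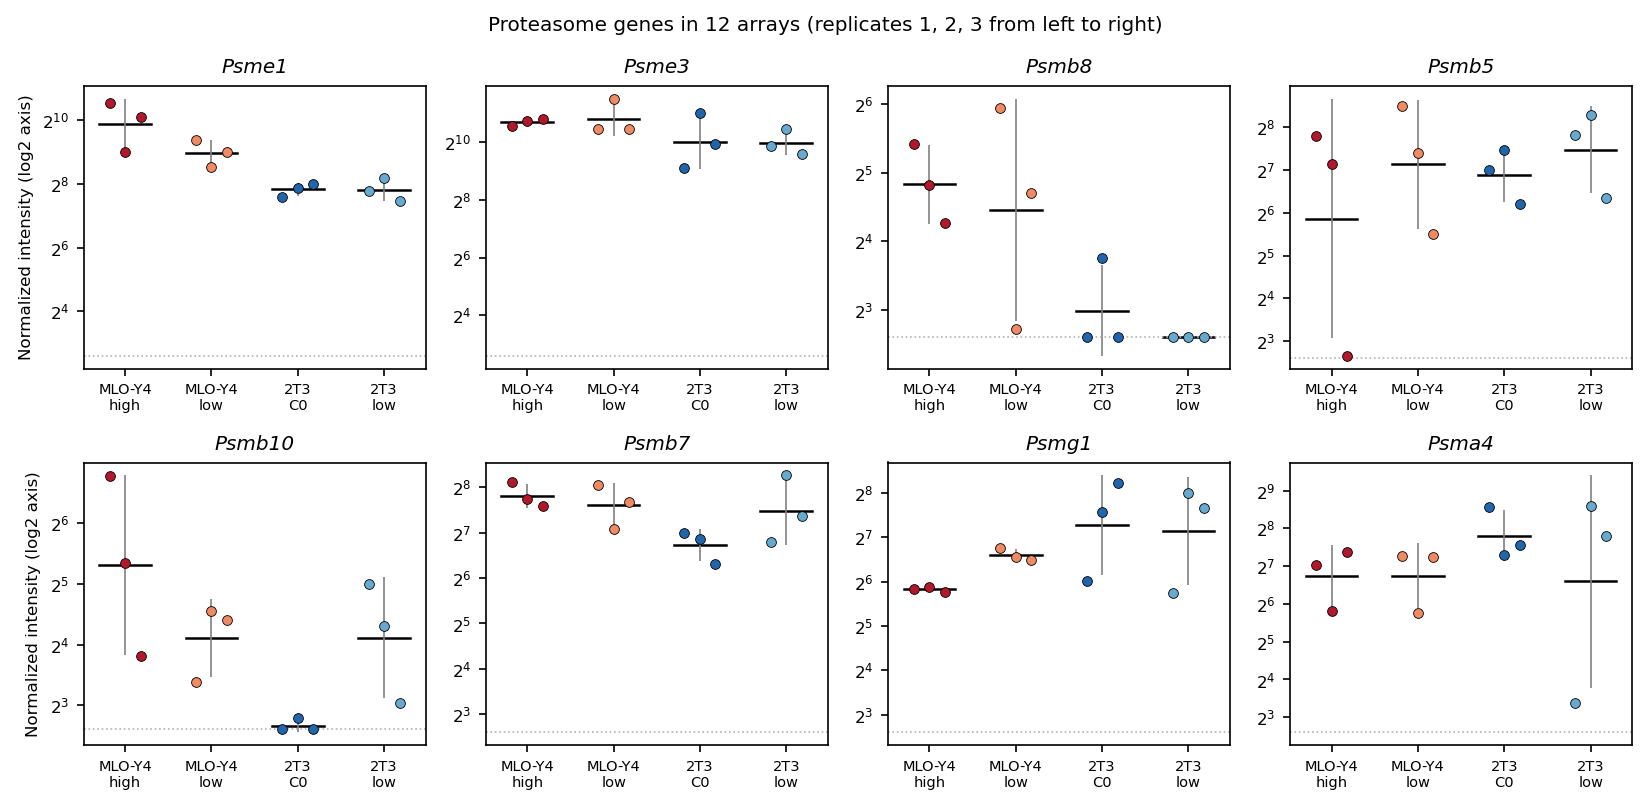
Normalized intensity (log2 axis) of 8 proteasome genes on each of 12 arrays, with replicates 1 to 3 from left to right, bars at the group mean of log2 values, lines of 1 SD and a dotted line at the floor of 6.08. Psme1 is higher on all 6 MLO-Y4 arrays, Psmb8 is at the floor on 5 of 6 2T3 arrays, and the other 6 genes overlap between the lines.

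Activators and assembly factors had a median line difference of 0.75, against 1.72 with equal array medians and 0.86 with detected-spot scaling. Psme3, which encodes the nuclear activator gamma, had the brightest spot of this group and lay at 1499, 1689.7 and 1786 on the MLO-Y4 high arrays and 1425, 2911 and 1399 on the MLO-Y4 low arrays, against 555, 2058 and 977 on the 2T3 C0 arrays and 943, 1413 and 779.9 on the 2T3 low arrays. The difference was 0.75 (SE 0.35, adjusted p = 0.262), and 2T3 C0 2 exceeded 5 of the 6 MLO-Y4 values. Psmg1, a chaperone that assembles the alpha ring, lay at 56.8, 58.9 and 54.8 on the MLO-Y4 high arrays and 108, 94.5 and 90.5 on the MLO-Y4 low arrays, against 65.2, 189.6 and 299 on the 2T3 C0 arrays and 53.6, 258 and 202 on the 2T3 low arrays. Its 3 MLO-Y4 high values were close together, and the 2T3 values spread over both sides of the MLO-Y4 ones, with a difference of -0.99 (SE 0.46, adjusted p = 0.255).

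The alpha subunits, which form the outer rings of the core, gave 0 of 6 past the threshold, with differences from -0.69 (Psma7) to 0.25 (Psma6) and a median of -0.29, against 0.19 with equal array medians and -0.67 with detected-spot scaling. Psma7 had the smallest p, and lay at 129, 51.7 and 60.3 on the MLO-Y4 high arrays and 147, 50.2 and 56 on the MLO-Y4 low arrays, against 178, 68.6 and 59.9 on the 2T3 C0 arrays and 113, 250.1 and 142 on the 2T3 low arrays, with a difference of -0.69 (SE 0.42, adjusted p = 0.411). Psma4 had the brightest spot, at 131, 56.4 and 166 on the MLO-Y4 high arrays and 153, 53.8 and 152 on the MLO-Y4 low arrays, against 379, 156 and 190.0 on the 2T3 C0 arrays and 10.4, 386 and 224 on the 2T3 low arrays. 2T3 low 1 stood far below the other 11 arrays, and without it the Psma4 difference was -1.29, against -0.45 with it. Of the 8 beta subunits, which hold the catalytic sites, 1 was called (Psmb8), and their median was -0.0098, against 0.28 with equal array medians and -0.48 with detected-spot scaling. Psmb2, a structural subunit of the beta ring, lay at 47.8, 61.3 and 51.3 on the MLO-Y4 high arrays and 154, 67.3 and 56 on the MLO-Y4 low arrays, against 97.8, 52.2 and 101 on the 2T3 C0 arrays and 219, 132 and 128 on the 2T3 low arrays, with a difference of -0.74 (SE 0.32, adjusted p = 0.215). Psmb1 was again low on 2T3 low 1 alone, at 17.6 there against 65.7 to 384 on the other 11 arrays.

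None of the 4 ATPases that unfold substrates passed, with differences from 0.068 (Psmc1) to 0.71 (Psmc5). Their median was 0.34, against 1.09 with equal array medians and 0.23 with detected-spot scaling. Psmc5, with the smallest p and the brightest spot of its role, lay at 314, 355 and 240.0 on the MLO-Y4 high arrays and 473, 245 and 153 on the MLO-Y4 low arrays, against 316, 166 and 123 on the 2T3 C0 arrays and 276, 138 and 102 on the 2T3 low arrays. In each of the 4 groups array 3 was the lowest, and the difference was 0.71 (SE 0.38, adjusted p = 0.341). Of the other regulatory subunits 0 of 4 passed, with differences from -0.84 (Psmd4) to 0.29 (Psmd10). The ubiquitin receptor gene Psmd4 lay at 6.08, 18.4 and 12 on the MLO-Y4 high arrays and 7.92, 6.58 and 29.3 on the MLO-Y4 low arrays, against 6.08, 12.6 and 23.8 on the 2T3 C0 arrays and 78.2, 33.8 and 14.1 on the 2T3 low arrays, with a difference of -0.84 (SE 0.57, adjusted p = 0.471). Psmd7, a partner of the deubiquitinating subunit, had the brightest spot, and lay at 353, 238 and 118 on the MLO-Y4 high arrays and 402, 385 and 183 on the MLO-Y4 low arrays, against 309, 452 and 205 on the 2T3 C0 arrays and 628, 627 and 265 on the 2T3 low arrays. Psmd10, which encodes the assembly factor gankyrin, was above the limit on 1 of 12 arrays, Psmd4 on 6 of 12 and the ATPase gene Psmc1 on 2 of 12. The differences given for Psmd10, Psmd4 and Psmc1 therefore depend on the floor.

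Among small heat shock proteins, which hold unfolded clients, Hspb1, also a regulator of actin filaments, lay at 882, 264 and 344 on the MLO-Y4 high arrays and 619.7, 379.8 and 422 on the MLO-Y4 low arrays, against 154, 174 and 146 on the 2T3 C0 arrays and 459, 349 and 246 on the 2T3 low arrays. Its means were 447 in MLO-Y4 and 232 in 2T3, and the difference of 0.95 (SE 0.33, adjusted p = 0.115) did not pass. The 3 C0 arrays lay below all 6 MLO-Y4 arrays, and the 2T3 low arrays lay within the MLO-Y4 range except the third. With arrays scaled to equal medians the difference was 1.83 and passed (adjusted p = 0.0399). Hspb7, a small heat shock protein best known in heart and muscle, lay at 143, 85.7 and 379 on the MLO-Y4 high arrays and 213, 151 and 159 on the MLO-Y4 low arrays, against 162, 114 and 79 on the 2T3 C0 arrays and 6.08, 68.5 and 84.2 on the 2T3 low arrays. Its lowest value was 2T3 low 1, and the difference was 1.48 (SE 0.65, adjusted p = 0.227), or 0.90 without that array. Hspb3, also a muscle member, was above the limit on 1 of 12 arrays. The median of the 3 was 0.95, against 1.83 with equal array medians and 0.97 with detected-spot scaling.

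The 6 folding genes of the endoplasmic reticulum gave 0 past the threshold, with differences from -0.087 (Pdia3) to 1.69 (Hspa5) and a median of 0.44, against 1.15 with equal array medians and 0.29 with detected-spot scaling. Hspa5 encodes BiP, the Hsp70 of this compartment and the sensor partner of the unfolded protein response, and lay at 99.1, 92 and 402 on the MLO-Y4 high arrays and 107, 71.4 and 247 on the MLO-Y4 low arrays, against 33.6, 45.2 and 47.2 on the 2T3 C0 arrays and 6.08, 159 and 90 on the 2T3 low arrays. The MLO-Y4 values lay above all 3 C0 values, while 2T3 low ran from the floor to 159. The difference was 1.69 (SE 0.78, adjusted p = 0.251), with an interval of -0.043 to 3.41. Pdia4, a disulfide isomerase, lay at 158, 141 and 60.3 on the MLO-Y4 high arrays and 84.8, 94.5 and 103 on the MLO-Y4 low arrays, against 67.5, 57.5 and 21.6 on the 2T3 C0 arrays and 6.08, 106 and 64.6 on the 2T3 low arrays, with a difference of 1.39 (SE 0.66, adjusted p = 0.272). Hsp90b1, the Hsp90 of the same compartment, lay at 115, 73 and 271 on the MLO-Y4 high arrays and 121, 64.6 and 186 on the MLO-Y4 low arrays, against 82.8, 66.1 and 109.8 on the 2T3 C0 arrays and 18.5, 159 and 142 on the 2T3 low arrays, with a difference of 0.62 (SE 0.58, adjusted p = 0.627). 2T3 low 1 was the lowest 2T3 low array for all 6 of these genes. Without it the median of the 6 was 0.12, and the differences were 1.01 for Hspa5, 0.79 for Pdia4 and 0.11 for Hsp90b1. Over all members 2T3 low 1 was the lowest array of its group for 31 of 62, against 31.3% of all spots. The lectin chaperone gene Calr, with the brightest spot of its role, lay at 891, 553 and 389.8 on the MLO-Y4 high arrays and 908, 1109.9 and 364 on the MLO-Y4 low arrays, against 2134, 886 and 198 on the 2T3 C0 arrays and 389.8, 443 and 746 on the 2T3 low arrays. Canx, its membrane-bound relative, lay at 217, 158 and 446 on the MLO-Y4 high arrays and 343, 226 and 516 on the MLO-Y4 low arrays, against 231, 152 and 223 on the 2T3 C0 arrays and 208, 317 and 409.8 on the 2T3 low arrays. Pdia3, the isomerase that works with both, lay at 392, 242 and 315 on the MLO-Y4 high arrays and 362, 229.7 and 263 on the MLO-Y4 low arrays, against 374, 231 and 209 on the 2T3 C0 arrays and 161, 496 and 652 on the 2T3 low arrays. For these 3 genes the values of the lines interleaved, with differences of 0.092, 0.25 and -0.087.

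Promoters of Hspb1 and Hspa5 are shown because Hspb1 holds letters of part of a heat shock element, also found in 9.04% of all genes, and Hspa5 the full stress element of the unfolded protein response (RefSeq, GRCm38.p6, plus strand, 250 bases before to 25 after the start). Hspb1 is at chr5:135887669-135887943 and Hspa5 at chr2:34771840-34772114. Capitals mark GAANNTTC, 2 adjoining units of the heat shock element, in Hspb1, and the endoplasmic reticulum stress element, CCAAT, any 9 bases and CCACG, in Hspa5, at bases -65 to -47.
Hspb1: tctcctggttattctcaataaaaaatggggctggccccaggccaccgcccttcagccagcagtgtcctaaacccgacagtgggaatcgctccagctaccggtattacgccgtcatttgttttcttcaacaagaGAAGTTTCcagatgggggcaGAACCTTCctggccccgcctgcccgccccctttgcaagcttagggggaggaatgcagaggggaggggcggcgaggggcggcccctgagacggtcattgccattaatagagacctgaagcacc
Hspa5: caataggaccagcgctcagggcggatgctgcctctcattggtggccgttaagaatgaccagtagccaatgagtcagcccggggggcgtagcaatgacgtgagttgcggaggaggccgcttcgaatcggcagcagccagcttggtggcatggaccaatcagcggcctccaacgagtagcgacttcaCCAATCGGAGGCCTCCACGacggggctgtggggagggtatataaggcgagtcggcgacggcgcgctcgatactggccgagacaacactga
The stress element was present in 5 of 54 members, namely Hspa5, Hsp90b1, Calr, Canx and the J protein gene Dnajc3 (9.26%, against 0.137% of all genes). None of these 5 genes passed the threshold between the lines. The 2-unit heat shock letters were in 9 members (16.7%, against 9.04%).

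**Figure D3:**
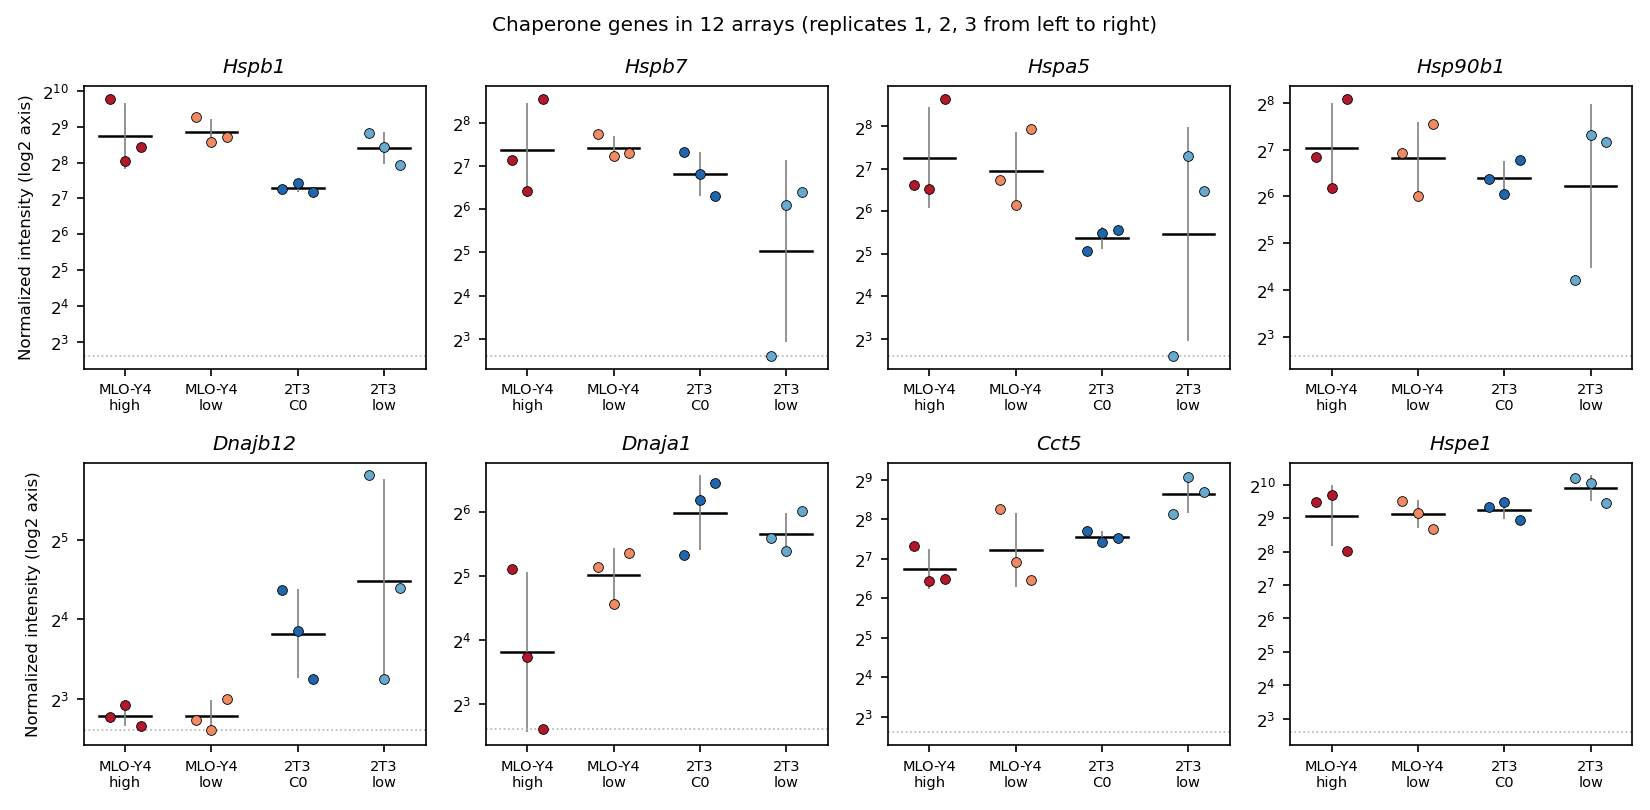
Normalized intensity (log2 axis) of 8 chaperone genes on each of 12 arrays, with replicates 1 to 3 from left to right, bars at the group mean of log2 values, lines of 1 SD and a dotted line at the floor of 6.08. Hspb1 is lower on the C0 arrays than on the other 9, Hspa5 and Hspb7 are at the floor on 2T3 low 1, and Dnajb12 is below the detection limit on all 6 MLO-Y4 arrays.

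J proteins, which bring clients to Hsp70, gave 0 of 12 past the threshold, with 6 differences above 0 and 6 below, from -1.45 (Dnajb3) to 0.52 (Dnajc7), and a median of -0.091, against 0.33 with equal array medians and -0.52 with detected-spot scaling. Dnajb12, a J protein of the endoplasmic reticulum membrane, lay at 6.83, 7.58 and 6.33 on the MLO-Y4 high arrays and 6.67, 6.08 and 8.0 on the MLO-Y4 low arrays, against 20.6, 14.4 and 9.50 on the 2T3 C0 arrays and 56.1, 9.50 and 21 on the 2T3 low arrays. It was detected on 0 of 6 MLO-Y4 arrays and 4 of 6 2T3 arrays, so its MLO-Y4 level is only a bound and no fold is given (adjusted p = 0.0641). From the lack of overlap, which 88 spots (1.75%) showed in this direction, nothing is read for values under the limit. Dnaja1, a main partner of cytosolic Hsp70, lay at 34.6, 13.3 and 6.08 on the MLO-Y4 high arrays and 35.5, 23.6 and 41.3 on the MLO-Y4 low arrays, against 40.5, 72.9 and 87.9 on the 2T3 C0 arrays and 48.5, 41.9 and 64.6 on the 2T3 low arrays. Its MLO-Y4 values reached the lowest 2T3 value only on MLO-Y4 low 3, and the difference was -1.41 (SE 0.42, adjusted p = 0.0655). Detection limits were cleared by 3 of its 6 MLO-Y4 values and by all its 2T3 values, so the difference rests partly on bounds. With detected-spot scaling it was -2.17 and passed (adjusted p = 0.00802). Dnajb5, with the brightest spot of its role, lay at 173, 415 and 1212 on the MLO-Y4 high arrays and 94.2, 433 and 851 on the MLO-Y4 low arrays, against 134, 511 and 1013 on the 2T3 C0 arrays and 609.8, 371 and 518 on the 2T3 low arrays. Dnajb3, best known from testis, lay at 19.2, 25.1 and 14.1 on the MLO-Y4 high arrays and 14.2, 6.08 and 13.8 on the MLO-Y4 low arrays, against 195, 6.33 and 13.8 on the 2T3 C0 arrays and 493, 8.33 and 47.2 on the 2T3 low arrays, and was high on the first array of both 2T3 groups. Dnaja2 was above the limit on 3 of 12 arrays and the testis gene Dnajb8 on 2.

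None of the 7 Hsp70 and Hsp110 genes passed, with differences from -1.26 (Hspa1l) to 0.74 (Hspa2) and a median of -0.24, against -0.22 with equal array medians and -0.91 with detected-spot scaling. Hspa1l, an Hsp70 gene expressed mainly in testis, had the smallest p and lay at 6.08, 19.2 and 8.25 on the MLO-Y4 high arrays and 6.08, 6.08 and 9.50 on the MLO-Y4 low arrays, against 6.08, 24.8 and 69 on the 2T3 C0 arrays and 6.08, 21.7 and 47.2 on the 2T3 low arrays, with a difference of -1.26 (SE 0.66, adjusted p = 0.328). It cleared the limit on 5 of 12 arrays. Hspa9 encodes the mitochondrial Hsp70 and lay at 50.2, 30.7 and 12 on the MLO-Y4 high arrays and 81.3, 14.5 and 167 on the MLO-Y4 low arrays, against 40.5, 53 and 78.1 on the 2T3 C0 arrays and 23.6, 158 and 152 on the 2T3 low arrays, with a difference of -0.78 (SE 0.70, adjusted p = 0.608). The exchange factor gene Hsph1 was above the limit on 3 of 12 arrays, and Hspa4, of the same family, had a difference of 0.12 (SE 0.59). Related Hsp70 genes can bind the same spot, and this was not tested.

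CCT subunits form a ring together, and their line differences ran from -1.11 (Cct5) to 1.05 (Cct3), with 0 of 7 past the threshold. Their median was 0.32, against 0.72 with equal array medians and 0.079 with detected-spot scaling. Cct3 was at the floor on 2T3 low 1, and without that array its difference was 0.40 and the median of the 7 was 0.11. Cct5 lay at 160.0, 86.3 and 89.7 on the MLO-Y4 high arrays and 308, 122 and 88.1 on the MLO-Y4 low arrays, against 209, 172 and 183 on the 2T3 C0 arrays and 281, 543 and 416 on the 2T3 low arrays. 1 MLO-Y4 value exceeded 4 of the 6 2T3 values, and the others lay below the lowest of them, with a difference of -1.11 (SE 0.34, adjusted p = 0.0785). With detected-spot scaling it was -1.23 and passed (adjusted p = 0.0396). Cct2, with the brightest spot of its role, lay at 318, 198 and 146 on the MLO-Y4 high arrays and 553, 263 and 74.8 on the MLO-Y4 low arrays, against 437, 332 and 179 on the 2T3 C0 arrays and 467, 712 and 743 on the 2T3 low arrays, with a difference of -1.0 (SE 0.48, adjusted p = 0.271). Cct8 had the difference nearest 0, 0.0048, with an interval of -0.74 to 0.75.

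The mitochondrial chaperonin has a barrel, from Hspd1, and a lid, from Hspe1, whose genes lie head to head on mouse chromosome 1. Hspe1 lay at 708, 833 and 259.8 on the MLO-Y4 high arrays and 729, 572 and 409.8 on the MLO-Y4 low arrays, against 641, 707 and 489.9 on the 2T3 C0 arrays and 1164, 1048 and 702 on the 2T3 low arrays, with a difference of -0.48 (SE 0.33, adjusted p = 0.479). Hspd1 lay at 64.1, 33.9 and 19.2 on the MLO-Y4 high arrays and 61.3, 39.3 and 88.1 on the MLO-Y4 low arrays, against 67.5, 14.4 and 14.5 on the 2T3 C0 arrays and 6.08, 70.3 and 58.9 on the 2T3 low arrays, with a difference of 0.77 (SE 0.68, adjusted p = 0.599). Hspd1 was at the floor on 2T3 low 1, and without that array its difference was 0.22. Neither Hspe1 nor Hspd1 passed, and the lines overlapped for both. The Hspe1 promoter (chr1:55087898-55088172, RefSeq, GRCm38.p6, plus strand) is shown for its full heat shock element. Capitals mark 2 overlapping matches of GAA, TTC and GAA with any 2 bases between units, 1 on each strand, at bases -89 to -72, which hold the 2-unit letters, and the same bases on the other strand are the Hspd1 matches.
Hspe1: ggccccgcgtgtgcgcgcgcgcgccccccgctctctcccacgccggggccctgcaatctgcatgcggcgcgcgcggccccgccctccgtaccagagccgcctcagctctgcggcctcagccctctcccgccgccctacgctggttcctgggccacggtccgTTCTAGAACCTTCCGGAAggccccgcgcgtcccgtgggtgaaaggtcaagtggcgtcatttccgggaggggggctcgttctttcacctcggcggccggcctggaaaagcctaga
The 3-unit element was in 4 of 54 members, namely Hspe1, Hspd1, Hsph1 and Dnajb6 (7.41%, against 0.662% of all genes), and none of these 4 passed between the lines.

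Genes of the same pathways outside the member set were read from 3 lists. Of 18 measured heat shock factors and co-chaperones (of 44 listed), 1 was higher in MLO-Y4 and 0 lower. It was Bag3, a co-chaperone of Hsp70 in chaperone-assisted autophagy, at 3098, 2009.8 and 2025 on the MLO-Y4 high arrays and 2369.7, 2695 and 1583 on the MLO-Y4 low arrays, against 721, 1273 and 939 on the 2T3 C0 arrays and 1123, 569.9 and 875 on the 2T3 low arrays. The MLO-Y4 values lay above all 2T3 values (log2 1.34, SE 0.27, adjusted p = 0.0114). Of 19 measured genes of the unfolded protein response and reticulum folding (of 51 listed), 1 was higher and 0 lower. Ddit3, the stress transcription factor CHOP, lay at 117, 537 and 1637 on the MLO-Y4 high arrays and 87.9, 657 and 1007 on the MLO-Y4 low arrays, against 42.4, 77.7 and 82.8 on the 2T3 C0 arrays and 43.4, 70.3 and 64.6 on the 2T3 low arrays, without overlap between the lines (log2 2.80, SE 0.73, adjusted p = 0.0386). That call was lost in 10 of 12 fits that left out an array, with adjusted p up to 0.0933.

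Of 26 measured genes of the ubiquitin system and proteasome regulators (of 55 listed), 2 were higher and 1 lower. Ube2l6, the conjugating enzyme for the interferon-induced modifier ISG15, lay at 83.2, 48.8 and 138 on the MLO-Y4 high arrays and 21, 35.9 and 28.3 on the MLO-Y4 low arrays, against 13.9, 6.92 and 14.5 on the 2T3 C0 arrays and 19.4, 8.33 and 21 on the 2T3 low arrays (log2 1.89, SE 0.37, adjusted p = 0.00956). The values of 21 on MLO-Y4 low 1 and 2T3 low 3 were under the limits of those arrays, 47.2 and 25.1. The lines did not overlap, but nothing is read from this for values under the limit. On 2T3 C0 2 and 2T3 low 2 it was under the limit as well. Sqstm1, the autophagy receptor for ubiquitinated cargo, averaged 469 in MLO-Y4 and 164 in 2T3 (log2 1.51, SE 0.31, adjusted p = 0.0121), with overlap. Rbx1, the RING subunit of cullin ligases, averaged 27 in MLO-Y4 and 109 in 2T3 (log2 -2.02, SE 0.55, adjusted p = 0.0472), with overlap. Without the 4 arrays numbered 1 the adjusted p was 0.0582 for Bag3, 0.0556 for Sqstm1 and 0.0841 for Ube2l6, and with detected-spot scaling it was 0.132 for Ube2l6. With the replicate block Rbx1 did not pass (adjusted p = 0.0532), and it passed in 2 of 12 fits that left out an array. The median line differences of the 3 lists were -0.14, -0.0028 and -0.12, beside -0.032 over all spots. In the density comparisons no gene of the 3 lists passed.

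**Figure D4:**
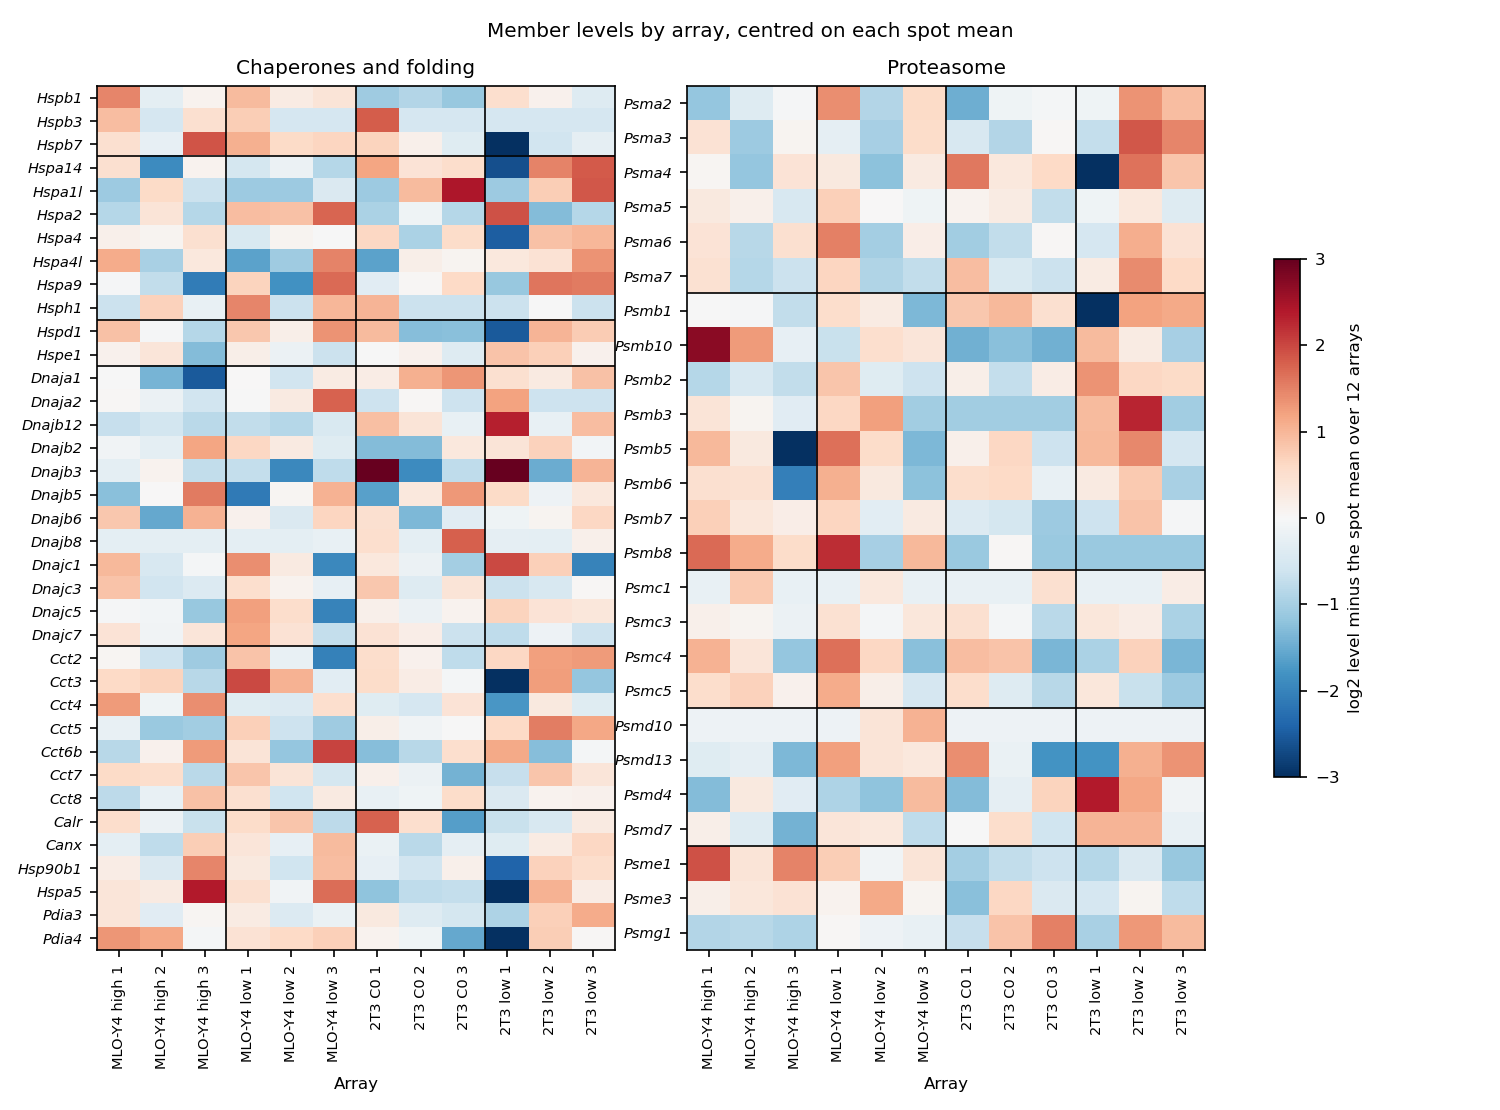
Log2 level of each of the 62 members on each of 12 arrays minus that member's mean over the arrays, with chaperones on the left and the proteasome on the right and lines between roles and groups (colours end at 3 log2 units). Psme1 and Psmb8 are high in MLO-Y4, and on 2T3 low 1 a scatter of members from several roles, Hspa5, Pdia4, Cct3, Psma4 and Psmb1 among them, is at its lowest.

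The comparison of 2T3 C0 with 2T3 low asked what confluence changes in the osteoblast line. No member passed an adjusted p of 0.05 in limma, and neither did any of the 5030 spots (0%). Unadjusted p was under 0.05 for 3 members (4.84%), against 5.29% of all spots. The members' median log2 difference of C0 minus low was -0.27, and it ran from -0.42 to 0.0052 when single arrays were left out. For 7 members (11.3%) the 3 C0 values lay below the 3 low values, against 4.17% of all spots. For 0 members they lay above, against 4.87%. The 7 were Hspb1, Cct5, Cct2, Psmb2, Psmb10, Hspa4l and Dnajc5, of which Psmb10 was above the limit on 0 of 3 C0 arrays and Hspa4l on 2.

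Hspb1 had 154, 174 and 146 on the 2T3 C0 arrays, against 459, 349 and 246 on the 2T3 low arrays, with means of 158 in C0 and 340.5 in low (log2 -1.11, SE 0.46, unadjusted p = 0.0365, adjusted p = 0.929). The C0 values were tight and the low values spread over nearly 1 log2 unit. Cct5 had 209, 172 and 183 on the 2T3 C0 arrays, against 281, 543 and 416 on the 2T3 low arrays (log2 -1.09, unadjusted p = 0.0486, adjusted p = 0.929). Psmb3, a beta subunit, was at the floor on all 3 C0 arrays and on 2T3 low 3. Its C0 level is therefore only a bound (adjusted p = 0.929 in limma), and 2 of the low arrays were above the limit. With the limit in place of the C0 values, the Psmb3 fold of low over C0 was 2.23, a point estimate without array spread. The interval of the fitted difference ran from -3.54 to -0.013, so no minimum fold is given. Psma2, an alpha subunit, had 19.5, 49.6 and 51.4 on the 2T3 C0 arrays, against 49.5, 137 and 102 on the 2T3 low arrays (log2 -1.27, adjusted p = 0.953), and Psmd4 a difference of -1.45 (SE 0.81). Hspb7 had the largest positive difference, 1.79 (SE 0.92), with 162, 114 and 79 on the 2T3 C0 arrays, against 6.08, 68.5 and 84.2 on the 2T3 low arrays. Without 2T3 low 1, its value at the floor, the difference was 0.60. Several role medians differed in sign without that array. For the 6 reticulum genes the median was 0.04 with it and -0.91 without it, and for the Hsp70 and Hsp110 genes 0.25 and -0.89. For the J proteins it was -0.42 and 0.29. The median of the alpha subunits was negative with and without it, -0.87 and -1.26. Dnajb2, a J protein with ubiquitin-binding motifs, had 6.08, 6.08 and 18.5 on the 2T3 C0 arrays, against 19.4, 24.1 and 14.1 on the 2T3 low arrays (log2 -1.09), and Psmc4, a regulatory ATPase, had 261, 251 and 53.2 on the 2T3 C0 arrays, against 71.2, 225 and 53.3 on the 2T3 low arrays (log2 0.68). Dnajb2 was above the limit on 1 of 3 C0 and 2 of 3 low arrays, so its difference depends on the floor. Psmd4 was above it on 2 of 3 C0 and 2 of 3 low arrays. The Hsp110-type exchange factor gene Hspa4l had 6.08, 21 and 19.5 on the 2T3 C0 arrays, against 23, 24.8 and 47.2 on the 2T3 low arrays (log2 -1.14, SE 0.86), and Canx a difference of -0.60 (SE 0.48).

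The comparison of MLO-Y4 high with MLO-Y4 low asked what differs in the osteocyte line between the groups read as with and without gap junctions. Cell density and gap junctions cannot be told apart here. No member and no other spot passed (0%), and no member had an unadjusted p under 0.05, against 2.31% of all spots. The members' median was -0.079, and with single arrays left out it ran from -0.28 to 0.071. The high values lay below the low values for 3 members, Hspa2, Psmd13 and Psmg1 (4.84%, against 2.11% of all spots), and above for 0 (against 2.41%). Hspa2 and Psmd13 were each above the limit on 1 of 3 high arrays. Same-numbered MLO-Y4 arrays deviated together, so the 3 pairs of a number were also compared. The SEs, intervals and p-values printed for this comparison come from the fit of group means, which leaves out that pairing. High exceeded low in all 3 pairs for 4 members (6.45%), Psme1, Cct4, Pdia3 and Dnajb3, against 9.6% of all spots. It was below low in all 3 for 9 members (14.5%, against 9.96%), namely Psmb2, Psmb5, Psmd7, Psmd13, Psmg1, Canx, Cct3, Hspa2 and Dnaja1. Dnajb3 was above the limit on 1 of 3 high and 1 of 3 low arrays, so nothing is read from its pairs.

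Psme1 had the smallest p, with 1491, 519.9 and 1109.9 on the MLO-Y4 high arrays, against 664, 368 and 518 on the MLO-Y4 low arrays (log2 0.92, SE 0.43, unadjusted p = 0.0559, adjusted p = 1). High exceeded low in each pair, but the groups overlapped. Hspa2, an Hsp70 best known from germ cells, had 8.25, 19.7 and 8.25 on the MLO-Y4 high arrays, against 28.5, 27.6 and 50.2 on the MLO-Y4 low arrays, with the difference largest in size of the 62 members (log2 -1.63, SE 0.76). It was above the limit on 1 of 3 high and 2 of 3 low arrays. Dnaja1 had 34.6, 13.3 and 6.08 on the MLO-Y4 high arrays, against 35.5, 23.6 and 41.3 on the MLO-Y4 low arrays (log2 -1.21, SE 0.59). Psmd13, a scaffold subunit of the cap, had 16.2, 17.5 and 8.25 on the MLO-Y4 high arrays, against 49.1, 27.6 and 26 on the MLO-Y4 low arrays (log2 -1.30, SE 0.93), and Psmg1 had 56.8, 58.9 and 54.8 on the MLO-Y4 high arrays, against 108, 94.5 and 90.5 on the MLO-Y4 low arrays (log2 -0.78, SE 0.65). Dnaja1 was above the limit on 1 of 3 high and 2 of 3 low arrays, and Psmd13 on 1 of 3 high and 3 of 3 low arrays. Hspb1 had 882, 264 and 344 on the MLO-Y4 high arrays, against 619.7, 379.8 and 422 on the MLO-Y4 low arrays, a difference of -0.10 (SE 0.46) with an interval of -1.13 to 0.92. Cct4, a chaperonin subunit, had 95.1, 35.9 and 104 on the MLO-Y4 high arrays, against 30.4, 29.3 and 56 on the MLO-Y4 low arrays (log2 0.94, SE 0.60). For Psmb8 the difference was 0.38 (SE 0.71), for Psmb10 1.19 (SE 0.73), for Psma2 -0.88 (SE 0.66), for Psmc3 -0.23 (SE 0.43), for Canx -0.46 (SE 0.48) and for Hspd1 -0.78 (SE 0.97). None of the 3 MLO-Y4 high arrays detected Psmd10 or Hspb3, and no difference is given for them.

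**Figure D5:**
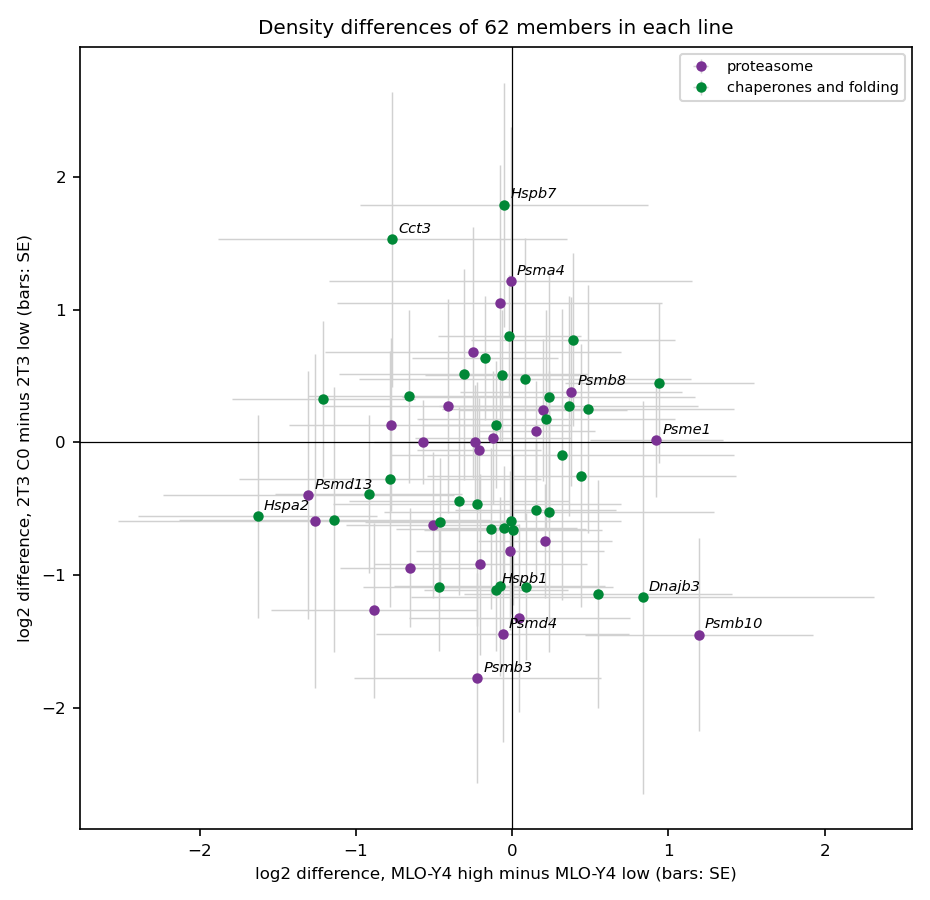
Log2 density differences of the 62 members, MLO-Y4 high minus low across and 2T3 C0 minus low up the page, with bars of 1 SE. Members below the detection limit on all arrays of a group are drawn at fitted values that the floor sets, Psmb10 among them. With the limit in place of its C0 values, the Psmb10 fold of low over C0 was 1.86, a point estimate without array spread. The interval of its fitted C0 minus low difference ran from -3.07 to 0.17, so no minimum fold is given. Psme1 lies at 0.92 and 0.016, and no member passed the threshold in either line.

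The difference between the density effects of the lines was tested as MLO-Y4 high minus low less 2T3 C0 minus low. No spot passed (0%), and 1 member, Psmb10, had an unadjusted p under 0.05, or 1.61% of members against 2.88% of all spots. Psmb10 lay at 109 on MLO-Y4 high 1, above every MLO-Y4 low array. Its 40.5 on MLO-Y4 high 2 lay under the limit of MLO-Y4 low 1, 47.2, where Psmb10 was not detected. It was detected on 0 of 3 C0 arrays, where its level is only a bound (fitted log2 2.64, SE 1.03, unadjusted p = 0.0279, adjusted p = 1 in limma). It cleared the limit on 6 of 12 arrays. For Hspb1 the difference was 1.01 (SE 0.65), for Psme1 0.91 (SE 0.60) and for Dnaja1 -1.54 (SE 0.83). Among other role groups the smallest p belonged to Psma3 (log2 1.37, SE 1.0), Psmc4 (log2 -0.93, SE 1.34), Cct3 (log2 -2.29, SE 1.58), Pdia3 (log2 0.66, SE 0.73), Hspa4l (log2 1.70, SE 1.21) and Hspe1 (log2 0.60, SE 0.66), and none passed. Cct3 was at the floor on 2T3 low 1, and without that array its value was -1.01. The standard errors of this comparison had a median of 0.96 log2 units. For none of the 62 members did the 95% interval stay within 1 log2 unit of 0.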

How the data were processed

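Total RNA of 12 samples in 4 groups of 3 was measured on one-colour spotted arrays. The deposited values are linear spot intensities that the authors had background-subtracted, read as such from the values themselves, which reach below 0. The sources used here give no image software, background method or probe sequences. Groups and replicate numbers came from the sample titles. Of 5030 spots a platform annotation, which can be old, listed 4638, and 4633 had 1 symbol. All 62 member symbols matched by Entrez identifier.

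Intensities were quantile normalized between arrays, floored at their 25th percentile (6.08 units) and log2 transformed. Differences of dim spots therefore depend on the floor. It lay below the detection limit of every array, so such differences can be too large as well as too small. Quantile normalization was preferred to equal medians because the medians of some arrays rest on background readings. limma 3.58.1 (R 4.3.3) fitted 4 group means (lmFit, 8 residual degrees of freedom) and gave two-sided moderated tests (eBayes). Adjusted p is Benjamini-Hochberg over all 5030 spots of a comparison, with a threshold of 0.05. Group means are geometric, SD is between the 3 arrays of a group, and SE and intervals come from the fit, which does not use replicate numbers. The number of arrays limits the precision. Scripts were tested on simulated data. Promoters came from RefSeq (GRCm38.p6), with 54 of 62 members matched.

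Members, roles and lists were chosen with earlier results of these data known. Named with values are Hspb1, all called members and, per role, the member with the smallest p in each comparison and that with the highest mean level, and list genes past the threshold. Psmb5, Hsp90b1, Pdia4, Cct8, Hspb7, Psmd13, Psmb1 and a few others were added after their values were seen. Same-numbered arrays of MLO-Y4 high and low deviated from their group means together (r across spots 0.63, 0.48 and 0.50), as did those of MLO-Y4 high and 2T3 C0 (0.53, 0.31 and 0.37), and both were taken as pairing. Between 2T3 C0 and low it was 0.039, 0.064 and 0.15, with 2 of 3 under 0.1, and between MLO-Y4 low and 2T3 low 0.0028, -0.11 and 0.13, which were not. The alternatives were equal array medians, detected-spot scaling, a floor at the 50th percentile, an offset of 50 in place of a floor, a dim-spot filter, the replicate block, single arrays left out, the 4 arrays numbered 1 left out, and only the groups compared.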

Additional observations from a re-analysis of the deposited data

How the results depend on the processing

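The count of members called between MLO-Y4 and 2T3, 2 in the report, was 4 with equal array medians (adding Hspb1 and Psme3), 1 with an offset of 50 in place of the floor (Psme1) and 1 with the replicate block, where Psmb8 had an adjusted p of 0.0552. It was 3 with detected-spot scaling, of which Psme1 was higher and Cct5 and Dnaja1 lower, 2 with a floor at the 50th percentile (Psme1 higher, Dnaja1 lower) and 2 with the dim-spot filter. With single arrays left out it ran from 1 to 2. Without the 4 arrays numbered 1 it was 3, and these were Cct5, Dnaja1 and Psmg1, all lower. Over all spots 293 were called higher and 175 lower, against 414 and 94 with equal array medians, where the median of spots above the limit everywhere moved to 0.79, and 240 and 308 with detected-spot scaling. Psme1 passed in 18 of 19 alternatives and Psmb8 in 3 of 19. Bag3 and Sqstm1 passed in 18 of 19, Ube2l6 in 17, Ddit3 in 7 and Rbx1 in 6. No member passed in either density comparison or in their difference under any alternative run, and the replicate block called 0 there too. The cause of these changes was not tested. Spots near the detection limit, highest on the first MLO-Y4 arrays, have only bounds, and 28 of 62 members were above the limit on all 12 arrays.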
